A study of Mus musculus with 12 samples.

Results

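Genes of major histocompatibility complex (MHC) class II presentation and costimulation were followed in 12 RNA libraries of bone marrow-derived macrophages (BMDMs). The 10 genes were taken by symbol from the 18376 genes of the table, with no threshold on their values though with earlier results of these data known, and they are *H2-Aa*, *H2-Ab1*, *H2-Eb1*, *H2-DMa*, *H2-DMb1*, *Cd74*, *Ciita*, *Cd40*, *Cd80*, and *Cd86*. BMDMs are macrophages grown in culture from bone marrow progenitor cells, here of adult wild-type C57BL/6J mice. All cells received 50 ng/ml M-CSF, the growth factor that drives macrophage formation. Over 6 days they were given nothing else (CTRL), activin A at 50 ng/ml (Act), FST288 at 250 ng/ml (FST), or the 2 proteins together (Act + FST). Each group holds 3 libraries. FST288 is a follistatin isoform that captures activin A before it can reach a receptor, so it serves as the antagonist. The study asked whether activin A shapes macrophages, and the labels do not say how mature the cells were when it was added.

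MHC class II molecules carry peptides from engulfed protein to the surface, where CD4+ T cells read them. The α and β chains assemble with the invariant chain, and H2-DM later exchanges the remnant of that chain for peptide, a step which H2-DO restrains. CIITA is the coactivator that switches these genes on, and it acts through factors bound to the X and Y boxes of their promoters. A T cell also needs costimulation, which CD80 and CD86 deliver through CD28, while CD40 receives a signal back from the T cell. Resting macrophages hold little class II, and interferon-γ is the classical inducer of *Ciita* in them.

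The upstream sequences of 4 class II genes are shown because, in Act versus CTRL, the transcripts of *H2-DMb2* and *H2-Ob* were called higher and those of *H2-Eb1* and *H2-Aa* were not. They run from 250 to 41 bases before the RefSeq start of transcription, in the build GRCm38.p6, 5′ to 3′ on the strand of the gene. Capitals mark each match on either strand to the X box core ACNGATG or the Y box core GATTGG, and no match overlaps another. *H2-Eb1* lies at chr17:34305617-34305826 on the plus strand, *H2-Aa* at chr17:34287864-34288073 on the minus strand, *H2-DMb2* at chr17:34144999-34145208 on the plus strand, and *H2-Ob* at chr17:34238655-34238864 on the plus strand.
H2-Eb1: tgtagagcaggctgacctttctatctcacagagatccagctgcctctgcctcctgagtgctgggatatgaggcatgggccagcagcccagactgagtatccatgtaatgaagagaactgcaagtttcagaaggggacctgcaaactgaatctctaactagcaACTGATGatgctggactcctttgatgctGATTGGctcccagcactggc
H2-Aa: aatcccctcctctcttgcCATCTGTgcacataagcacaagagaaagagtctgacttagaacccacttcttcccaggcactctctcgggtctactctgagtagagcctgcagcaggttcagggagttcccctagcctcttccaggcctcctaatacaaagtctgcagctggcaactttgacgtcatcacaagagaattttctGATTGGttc
H2-DMb2: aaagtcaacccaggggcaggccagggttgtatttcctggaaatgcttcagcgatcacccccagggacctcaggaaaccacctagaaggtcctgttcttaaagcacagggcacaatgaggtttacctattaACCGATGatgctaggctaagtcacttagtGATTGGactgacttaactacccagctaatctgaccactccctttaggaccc
H2-Ob: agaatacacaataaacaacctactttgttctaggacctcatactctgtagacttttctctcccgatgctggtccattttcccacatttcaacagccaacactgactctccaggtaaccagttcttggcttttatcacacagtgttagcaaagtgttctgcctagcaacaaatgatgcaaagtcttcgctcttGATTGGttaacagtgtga

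The window of *H2-Eb1* also overlaps an exon of the noncoding antisense gene *Gm20513*. In *H2-Eb1* the 2 cores start 28 bases apart on the same strand, and in *H2-DMb2* they start 29 bases apart. *H2-DMb1* also held the ordered pair, with the cores 29 bases apart. The letters of the X core were found in 9.85% of the 32851 RefSeq promoters of 300 bases, and those of the Y core in 16.1%. An X core followed by a Y core with starts 15 to 40 bases apart on 1 strand was found in only 25 promoters (0.0761%), those of *H2-Eb1*, *H2-Eb2*, *H2-DMb1*, and *H2-DMb2* among them. In *H2-Aa* the Y core stood at −49 relative to the start and the only match to the X core was on the opposite strand at −232. In *H2-Ob* only the Y core was matched, at −58. The X box of many class II genes departs from the core letters, so that a missing match says only that these letters are not in the window. RefSeq promoters were matched for 5 of the 10 genes (*H2-Aa*, *H2-Eb1*, *H2-DMa*, *H2-DMb1*, and *Cd80*). *Cd80* matched neither core. *H2-DMa* has 2 listed promoters, of which the second held a Y core at −199.

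Expression is given as the authors' normalized counts, in which the counts per gene are scaled per library and rounded. Total normalized counts per library were between 5643708 and 5955400, which no longer shows the original depth. All 10 genes passed the filter of a mean of at least 5 normalized counts over the 12 libraries, as did 14318 genes in all, and these were tested in limma on log2(normalized count + 1) with 1 model for the 4 groups. Genes with a p of at most 0.05 after Benjamini-Hochberg adjustment over all genes tested are named as called, and tests were two-sided. Fold changes are on that log2 scale, which understates changes of genes with low values. Libraries with the same replicate number deviated together, so a second fit took the replicate number as a blocking factor. Its adjusted p-values and counts are given as blocked values where they change a call. Nothing in the labels says whether the replicates came from separate mice or cultures, and p-values may then measure technical spread. In a bulk culture, fewer cells that express a gene and less RNA per cell cannot be told apart.

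Per kilobase of annotated exon, *Cd74*, the invariant chain, had the highest level of the 10 genes, at 428.5 ± 52.1 normalized counts per kb (SD over n = 12 libraries). It was followed by *H2-Eb1* with 201 ± 38.2 normalized counts per kb, by *Cd86* with 189 ± 36.9, by *H2-Ab1* with 176 ± 30.3, and by *H2-DMb1* with 172 ± 9.83. The ranges of mean ± SD of these 4 neighbours overlapped. That SD includes differences between groups and replicate numbers, so it does not compare the genes within a library. *H2-Aa* (120 ± 23.3 normalized counts per kb), *Cd80* (114 ± 5.93), and *H2-DMa* (113 ± 14.3) formed a lower group whose ranges of mean ± SD also overlapped. *Cd40* (43.3 ± 6.13) and *Ciita* (31.3 ± 11.2 normalized counts per kb) had the lowest levels. The exon length is the union over all annotated transcripts, so a gene with long rare transcripts, such as *H2-Aa* with 3798 bases, is placed low on this scale. In C57BL/6J mice the Eα chain, the partner of the product of *H2-Eb1*, is not made, so that the level of *H2-Eb1* does not stand for a surface molecule.

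In Act versus CTRL, the costimulatory genes *Cd86* and *Cd80* moved in opposite directions. *Cd86* was 1.40-fold higher in Act and *Cd80* fell by 10.5%. *H2-DMa*, a chain of the peptide editor, was 1.21-fold higher. Of the 10 genes 2 were called higher and 1 lower, where 10.3% of all genes tested were called higher and 9.97% lower. None of the 10 genes reached the 2-fold change that the study required for a DEG. Of all genes tested, 5.66% were both called and changed at least 2-fold. The median log2 fold change of the 10 genes was −0.15, against 0.00359 over all genes tested. For 3 of the 10 genes the Act and CTRL libraries did not overlap, beside 35.7% of all genes tested in either direction.

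*Cd86* (ENSMUSG00000022901, chromosome 16 from 36603869 to 36666081) had 700, 610, and 596 normalized counts in CTRL replicates 1, 2, and 3, and 941, 907, and 820 in Act. It had 702, 685, and 516 normalized counts in Act + FST and 647, 627, and 540 in FST. Each Act library was above all 9 other libraries, and the other 3 groups overlapped. Act averaged 889 ± 62.4 normalized counts (SD, n = 3), CTRL 635 ± 56.4, Act + FST 634 ± 103, and FST 605 ± 56.9. *Cd86* had a log2 fold change of 0.49 in Act versus CTRL (standard error 0.11, limma adjusted p = 0.0083) and 0.50 in Act versus Act + FST (standard error 0.11, limma adjusted p = 0.0067). Both calls held when any single library was left out. *Cd86* was higher in 3 of 3 replicate pairs of each comparison, which follows from the separation of the Act libraries.

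*Cd80* (ENSMUSG00000075122, chromosome 16 from 38455561 to 38496335), which binds the same T cell receptors as CD86, had 423, 432, and 463 normalized counts in CTRL replicates 1, 2, and 3. The Act libraries had 400, 384, and 394 normalized counts. Act + FST libraries had 425, 430, and 424 and FST libraries 429, 448, and 427. All 3 Act libraries were below all 9 others, by a small margin. *Cd80* fell by 0.16 on the log2 scale in Act versus CTRL (standard error 0.04, limma adjusted p = 0.022). In Act versus Act + FST it was −0.12 (adjusted p = 0.078 from limma, 95% interval −0.21 to −0.02), which was not called. Without CTRL replicate 3, Act replicate 2, or Act replicate 3 the first call was lost, with limma adjusted p between 0.055 and 0.10, and likewise when only the 6 libraries compared were fitted (0.056).

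*H2-DMa* (ENSMUSG00000037649, chromosome 17 from 34119541 to 34139101) pairs with a β chain of H2-DM to form the editor. CTRL replicates 1, 2, and 3 held 391, 403, and 337 normalized counts, and Act replicates 446, 459, and 461. The Act + FST replicates held 357, 389, and 314, and the FST replicates 361, 408, and 337. Here too the 3 Act libraries lay above the other 9. For *H2-DMa* the difference of Act from CTRL was 0.28 on the log2 scale (standard error 0.09, limma adjusted p = 0.048, blocked 0.0022), and from Act + FST it was 0.37 (standard error 0.09, limma adjusted p = 0.011). Leaving out any 1 of CTRL replicate 1, CTRL replicate 3, and the 3 Act replicates ended the first call, with limma adjusted p between 0.061 and 0.19, whereas no single library ended the second. *H2-DMa* shares 10.4% of its exonic bases with *Brd2* on the opposite strand, and the strand setting of the counting is not given in the sources used here.

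**Figure D1:**
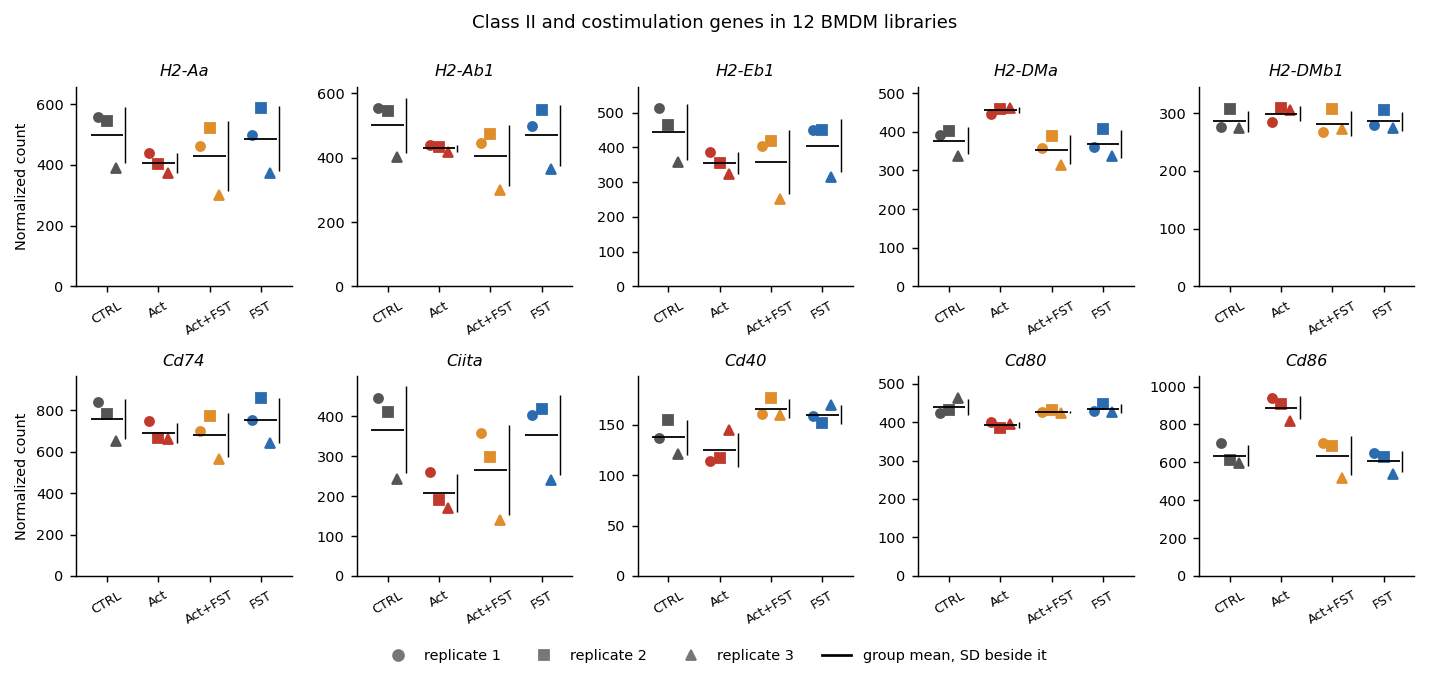
Normalized counts (vertical axis, starting at 0) of the 10 genes in the 12 libraries, by group (horizontal axis), with 1 symbol per replicate number, the group mean as a horizontal line and the SD (n = 3) as the vertical line beside it. The Act libraries stand above all others for Cd86 (820 to 941) and H2-DMa (446 to 461) and below all others for Cd80 (384 to 400). Replicate 3 (triangles) is the lowest library of each group for H2-Aa, H2-Ab1, H2-Eb1, Cd74, Ciita, and Cd86.

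*H2-DMb1* (ENSMUSG00000079547, chromosome 17 from 34153072 to 34160230) encodes a β chain of H2-DM. Act libraries held 285 to 309 normalized counts of it, CTRL libraries 275 to 307, FST libraries 274 to 305, and Act + FST libraries 267 to 307. The groups overlapped throughout, and Act exceeded CTRL by 0.07 on the log2 scale (95% interval −0.09 to 0.22, limma adjusted p = 0.57). The paralog *H2-DMb2* is closely related in sequence, and because the authors dropped reads that aligned to several regions, the split between *H2-DMb1* and *H2-DMb2* is uncertain.

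The classical class II chains, the invariant chain and *Ciita* had the opposite sign to *H2-DMa* and were not called in Act versus CTRL. *Ciita* (ENSMUSG00000022504, chromosome 16 from 10480059 to 10528418) had 446, 411, and 242 normalized counts in CTRL replicates 1, 2, and 3, and 261, 190, and 171 in Act. In Act + FST it had 358, 298, and 140 normalized counts and in FST 402, 419, and 239. Replicate 3 of CTRL, Act + FST, and FST lay within or below the range of the Act libraries, so that the groups overlapped. Act versus CTRL gave a log2 fold change of −0.79 for *Ciita* (standard error 0.34, 95% interval −1.53 to −0.06, limma adjusted p = 0.12). *Ciita* was lower in Act in 3 of 3 replicate pairs, by 0.77, 1.11, and 0.50 on the log2 scale, and with the replicate block the limma adjusted p was 3.5e-04. Fitted on the 6 libraries of Act and CTRL alone, without a block, it was 0.048. *Ciita* shares 3.45% of its exonic bases with *Dexi* on the opposite strand.

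*H2-Eb1* (ENSMUSG00000060586, chromosome 17 from 34305867 to 34316674), a β chain, had 513, 465, and 357 normalized counts in CTRL replicates 1, 2, and 3, and 386, 354, and 322 in Act. *H2-Aa* (ENSMUSG00000036594, chromosome 17 from 34282744 to 34287823), the α chain of I-A, had 558, 544, and 391 in CTRL and 439, 403, and 373 in Act. For both genes the Act library was the lower of each of the 3 replicate pairs, while the groups overlapped. *H2-Eb1* had a log2 fold change of −0.32 (limma adjusted p = 0.30, blocked 0.0076) and *H2-Aa* of −0.28 (limma adjusted p = 0.39, blocked 0.029). The blocked calls of both were lost without replicate number 1 (0.12 and 0.20), and that of *H2-Aa* without number 2 (0.10).

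*H2-Ab1* (ENSMUSG00000073421, chromosome 17 from 34257689 to 34269419), the β chain of I-A, had 554, 546, and 402 normalized counts in CTRL against 439, 433, and 418 in Act. *Cd74* (ENSMUSG00000024610, chromosome 18 from 60803848 to 60812652) had 840, 781, and 651 normalized counts in CTRL against 746, 664, and 661 in Act. In both genes replicates 1 and 2 were lower in Act and replicate 3 was slightly higher. Neither was called, at a log2 fold change of −0.20 for *H2-Ab1* (limma adjusted p = 0.50, blocked 0.094) and −0.13 for *Cd74* (limma adjusted p = 0.56, blocked 0.19).

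With the replicate block, 4 of the 10 genes were called lower in Act versus CTRL (*Cd80*, *Ciita*, *H2-Eb1*, and *H2-Aa*), beside 15.2% of all genes tested, and 2 were called higher (*Cd86* and *H2-DMa*), beside 16.3%. With replicate number 3 left out of every group, an alternative chosen after the data were seen, and with no block, *Ciita* (log2 fold change −0.94, limma adjusted p = 0.0048), *H2-Eb1* (−0.40, 0.0089), *H2-Ab1* (−0.33, 0.014), and *H2-Aa* (−0.39, 0.035) were called lower, where 4.85% of all genes were. *Cd86* was then the only one of the 10 genes called higher, where 5.11% of all genes were, and *H2-DMa* (0.18) and *Cd80* (0.24) were no longer called. With the block, *Ciita* was called whichever replicate number was left out, with limma adjusted p of 0.0072, 0.013, and 4.2e-07 without numbers 1, 2, and 3. The blocked call of *Cd80* was lost without number 2 (limma adjusted p = 0.073) or number 3 (0.11).

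**Figure D2:**
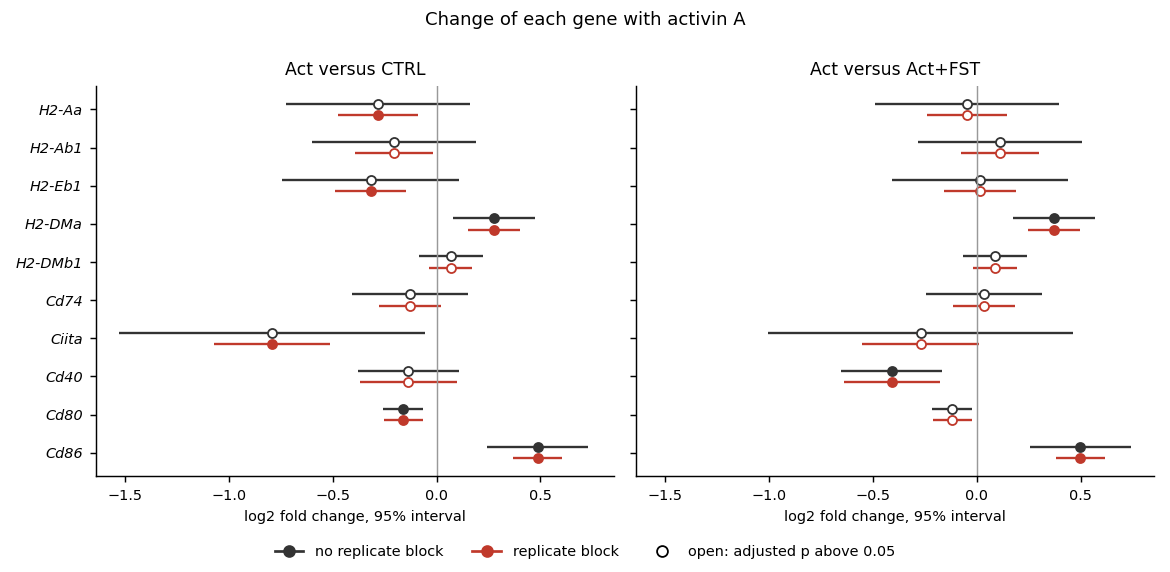
Log2 fold change (horizontal axis) of the 10 genes in Act versus CTRL and Act versus Act + FST, with 95% intervals from limma, without the replicate block in black and with it in red, where filled points mark an adjusted p of at most 0.05. Cd86 and H2-DMa stand above 0 in both panels with filled points, and Ciita at −0.79 is filled in Act versus CTRL only with the block.

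The variation of each gene over the 12 libraries was divided between group, replicate number and remainder on the log2 scale, as a description. Replicate number took 65.8% of the sum of squares of *H2-Aa*, 64.2% of *H2-Eb1*, 60.7% of *H2-Ab1*, 59.5% of *Cd74*, and 52.2% of *Ciita*, and the group took between 17.2% (*Cd74*) and 38.8% (*Ciita*). *H2-DMb1* had a share of 69.4% for replicate number, in a gene with little variation. The group took the larger share in *Cd80* (77.2%), *Cd86* (73.9%), *Cd40* (67.4%), and *H2-DMa* (65.7%).

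Replicate 3 was the lowest library of its group in 20 of 20 cases for *H2-Aa*, *H2-Ab1*, *H2-Eb1*, *Cd74*, and *Ciita* over the 4 groups, and in 13 of 20 cases for the other 5 genes. Among those 5, replicate 3 was also the lowest in all 4 groups for *Cd86*, and in every group but Act for *H2-DMa*. Over all genes tested, replicate 3 was the lowest in between 28.0% (CTRL) and 34.7% (Act) of genes per group and in all 4 groups in 3.47% of genes. In CTRL, replicate 3 of *Ciita* stood at 56.5% of the mean of replicates 1 and 2, and in Act + FST at 42.7%. The share was 75.8% in Act. For *H2-Aa* it was 71.0% in CTRL, 61.3% in Act + FST, 69.0% in FST, and 88.6% in Act.

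**Figure D3:**
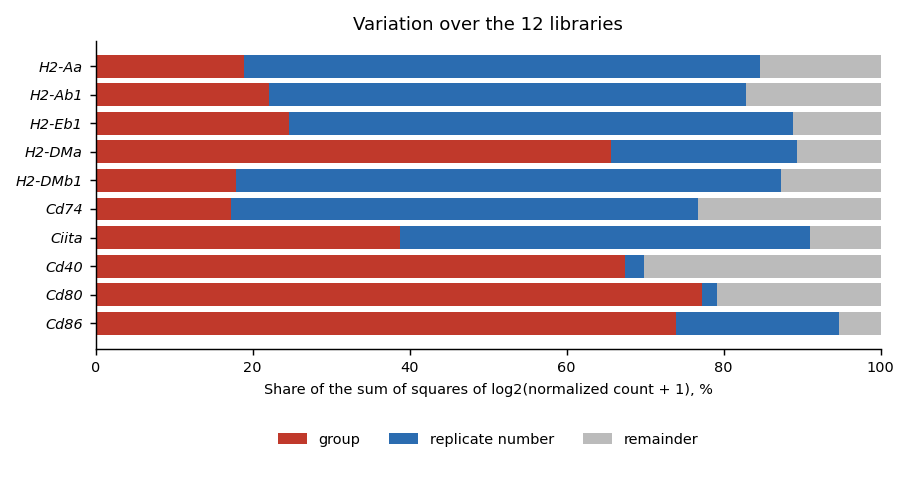
Share of the sum of squares of log2(normalized count + 1) over the 12 libraries (horizontal axis, in percent) that fell to group, replicate number and remainder for each of the 10 genes. Replicate number holds over 50% for H2-Aa, H2-Ab1, H2-Eb1, H2-DMb1, Cd74, and Ciita, and the group holds 65.7% or more for H2-DMa, Cd40, Cd80, and Cd86.

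Markers of other cells that carry class II were read in the same libraries. The 7 macrophage markers summed to between 10081 and 11162 normalized counts in every library, none of them at 0, with no order between the groups. The 9 dendritic cell markers summed to 584 to 822 normalized counts in CTRL, 604 to 620 in Act, 328 to 542 in Act + FST, and 560 to 641 in FST, most of it *Itgax*, which macrophages also express. In the replicate 3 libraries the dendritic cell sum was 328 to 604, against 542 to 822 in replicate 1 and 498 to 769 in replicate 2. The 6 B cell markers summed to 76 to 89 normalized counts in replicate 3, against 102 to 126 in replicate 1 and 109 to 126 in replicate 2, and up to 2 of them were at 0 in a library. Of that sum *Cd79b* held most, and the defining gene *Pax5* was at most 12 normalized counts in any library. *Pax5* was at 0 in replicate 3 of Act and of Act + FST, and *Cd79a* in replicate 3 of Act. The 4 monocyte markers also had their lowest sums in replicate 3 of CTRL (402), FST (441), and Act + FST (543), against at least 734 in every replicate 1 and 2 library, whereas replicate 3 of Act had 1106. *Ccr2*, the most abundant of them, had 633, 508, and 272 normalized counts in CTRL replicates 1, 2, and 3. Apart from the monocyte sum in Act, the dendritic cell, B cell, and monocyte sums were lowest in replicate 3 of each group. So were the classical class II chains, and the part of these sums in that pattern was not tested.

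Of the dendritic cell list 8 markers were tested in Act versus CTRL, with a median log2 fold change of 0.28. *Cd209a* was called lower (log2 fold change −2.27, limma adjusted p = 0.011, and 0.069 without replicate number 3) and none higher. With the block 3 were called higher (*Flt3*, *Dpp4*, and *Siglech*) and 2 lower (*Cd209a* and *Itgax*). Of the 7 macrophage markers, *Cd14* was called higher (0.23, limma adjusted p = 0.026, and 0.099 without replicate number 3). The other 6 were not called. The 4 monocyte markers summed to 1038 to 1131 normalized counts in Act and 402 to 812 in CTRL. Their sums were 543 to 965 in Act + FST and 441 to 879 in FST. Of these markers, *Ccr2* was called higher in Act (log2 fold change 1.04, limma adjusted p = 0.043, and 0.099 without replicate number 3). Neutrophil and progenitor markers summed to 317 to 454 normalized counts in Act and 380 to 598 in CTRL, with *Elane* and *Mpo* called lower. Of the T cell list only *Cd4* was among the genes of the table used here, at 393 to 493 normalized counts in Act and 612 to 700 in CTRL. The 5 stromal markers summed to 22 to 104 normalized counts in a library, with up to 3 of them at 0. The part of these shifts in the results for the 10 genes was not tested.

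Act versus Act + FST, the comparison of activin A with and without its antagonist, gave calls for *Cd86*, *Cd40*, and *H2-DMa* and none for the classical class II chains or *Ciita*. Of the 10 genes, *Cd86* and *H2-DMa* were called higher in Act, where 11.1% of all genes tested were, and *Cd40* was called lower, where 10.2% were. With the replicate block the same 3 genes were called, beside 17.1% of all genes higher and 15.4% lower. The blocked call of *Cd40* was lost without replicate number 1 (limma adjusted p = 0.11) or number 2 (0.10). None of the 10 reached 2-fold, while 5.83% of all genes tested were both called and changed at least 2-fold. For 4 of the 10 genes the Act and Act + FST libraries did not overlap, beside 34.1% of all genes tested in either direction.

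*Cd40* (ENSMUSG00000017652, chromosome 2 from 165055627 to 165072948), the receptor for CD40 ligand of T cells, had 114, 117, and 145 normalized counts in Act replicates 1, 2, and 3, and 161, 177, and 160 in Act + FST. CTRL libraries had 137, 155, and 121 and FST libraries 159, 152, and 170. Act lay below Act + FST with no overlap, and CTRL overlapped Act. *Cd40* fell by 0.41 on the log2 scale in Act versus Act + FST (standard error 0.11, limma adjusted p = 0.020), and the call was lost without Act replicate 1, Act replicate 2, or Act + FST replicate 2 (limma adjusted p between 0.071 and 0.079). Against CTRL the change was −0.14 in Act (limma adjusted p = 0.46) and 0.27 in Act + FST (95% interval 0.03 to 0.52, limma adjusted p = 1).

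*Ciita* and the classical chains were not called in Act versus Act + FST. For *Ciita* the log2 fold change was −0.27 (95% interval −1.01 to 0.46, limma adjusted p = 0.64, blocked 0.13), and for *H2-Aa*, *H2-Ab1*, *H2-Eb1*, and *Cd74* it was between −0.05 and 0.11. *H2-Aa* had 462, 523, and 302 normalized counts in Act + FST replicates 1, 2, and 3, *H2-Ab1* 445, 474, and 298, *H2-Eb1* 404, 419, and 252, and *Cd74* 702, 771, and 563. Replicates 1 and 2 of Act + FST were above those of Act for *H2-Aa*, *H2-Ab1*, and *H2-Eb1*, and replicate 3 was below, so the sign differed between the pairs. With replicate number 3 left out of every group, *Ciita* was called lower in Act (log2 fold change −0.55, limma adjusted p = 0.0496), *Cd40* and *Cd86* kept their calls, and *H2-DMa* was not called (limma adjusted p = 0.057).

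Between Act + FST and CTRL, 0 of the 10 genes were called, as were 0% of all genes tested in either direction, with 1 of the 10 genes and 655 of all genes at an unadjusted p under 0.05. With the replicate block 0 of the 10 were called, beside 0.279% of all genes higher and 0.279% lower, and 6 of the 10 and 1404 of all had an unadjusted p under 0.05. In all 3 pairs *Ciita*, *H2-Aa*, *H2-Ab1*, *H2-Eb1*, *Cd74*, and *H2-DMa* were lower in the Act + FST library than in its CTRL partner. The share of all genes lower in all 3 pairs was not computed. *Ciita* had a log2 fold change of −0.52 (limma adjusted p = 1, blocked 0.10), *H2-Eb1* of −0.33 (limma adjusted p = 1, blocked 0.087), and *H2-Ab1* of −0.32 (limma adjusted p = 1, blocked 0.14), and the other 3 were between −0.23 and −0.09 (blocked 0.37 to 0.69). The comparisons share libraries (Act in 2 of them, CTRL in 3, and Act + FST in 2) and are not independent of each other. Act + FST replicate 3 held the lowest value of all 12 libraries for *H2-Aa*, *H2-Ab1*, *H2-Eb1*, *Cd74*, and *Ciita*, and also for *H2-DMa* (314 normalized counts) and *Cd86* (516).

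In FST versus CTRL, limma called 0 of the 10 genes with or without the replicate block, as it did 0% of all genes, with 0 of the 10 and 299 of all genes at an unadjusted p under 0.05 (700 with the block). The FST libraries 1, 2, and 3 had 497, 587, and 374 normalized counts of *H2-Aa*, 498, 548, and 364 of *H2-Ab1*, 449, 451, and 316 of *H2-Eb1*, and 751, 860, and 644 of *Cd74*. Over the 10 genes the log2 fold changes were between −0.14 (*H2-Eb1*) and 0.22 (*Cd40*), and the interval of *Ciita*, from −0.78 to 0.69, was the widest.

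Whether the effect of activin A differed with FST288 was tested as the interaction (Act − CTRL) − (Act + FST − FST). None of the 10 genes was called, where 3.99% of all genes were called positive and 2.75% negative. With the replicate block *Cd86* (0.43 on the log2 scale, limma adjusted p = 0.0019) and *H2-DMa* (0.34, limma adjusted p = 0.011) were called positive, where 9.36% of all genes were positive and 6.96% negative. The interaction of *Ciita* was −0.32 (95% interval −1.36 to 0.72, limma adjusted p = 0.80, and 0.29 with the block), so that a loss of the *Ciita* difference with FST288 was not shown.

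Among the other genes of the class II pathway, *H2-Ob*, *H2-Oa*, and *H2-DMb2* had larger changes in Act versus CTRL than any of the 10 genes above. Of 10 genes listed, 9 were tested, and 3 were called higher and 1 lower in Act versus CTRL, with a median log2 fold change of 0.06. The lists were chosen with earlier results known, and their counts are read beside the shares of all genes given above. *H2-Ob* (chromosome 17 from 34238903 to 34254414), the β chain of H2-DO, had 33, 32, and 14 normalized counts in CTRL replicates 1, 2, and 3, and 119, 142, and 134 in Act. It had 44, 36, and 27 normalized counts in Act + FST and 19, 19, and 12 in FST. The Act libraries were far above all others, at a log2 fold change of 2.37 in Act versus CTRL (5.16-fold, standard error 0.31, limma adjusted p = 1.8e-04) and 1.88 in Act versus Act + FST (limma adjusted p = 9.1e-04).

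*H2-Oa*, the α chain of H2-DO, had lower values of 5, 24, and 8 normalized counts in CTRL, 38, 50, and 35 in Act, 14, 21, and 6 in Act + FST, and 4, 16, and 12 in FST. The Act libraries again stood above the other 9. It was higher by 1.91 on the log2 scale in Act versus CTRL (standard error 0.58, limma adjusted p = 0.034) and 1.65 in Act versus Act + FST (limma adjusted p = 0.061, blocked 0.0052), and without replicate number 3 the first was 1.86 (limma adjusted p = 0.17). *H2-Oa* shares 22.8% of its exonic bases with *BC051537* on the opposite strand.

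*H2-DMb2*, the other β chain of H2-DM, had 52, 59, and 66 normalized counts in CTRL against 110, 106, and 113 in Act. It had 56, 58, and 50 in Act + FST and 52, 63, and 57 in FST, so that Act was above all other libraries. *H2-DMb2* rose by 0.89 on the log2 scale in Act versus CTRL (standard error 0.13, limma adjusted p = 3.7e-04) and 0.99 in Act versus Act + FST (limma adjusted p = 1.6e-04), and the interaction was 0.96 (limma adjusted p = 0.0073). Both genes of the H2-DM β chain hold the pair of X and Y cores at the same spacing, and *H2-DMb1* was not called. *Ctsl*, a protease of the endosome, was the gene called lower (log2 fold change −0.23, limma adjusted p = 0.040, and 0.085 without replicate number 3). With the block, *Marchf1*, a ubiquitin ligase that removes class II from the surface, was also called higher (0.11, limma adjusted p = 0.024), which made 4 higher and 1 lower.

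**Figure D4:**
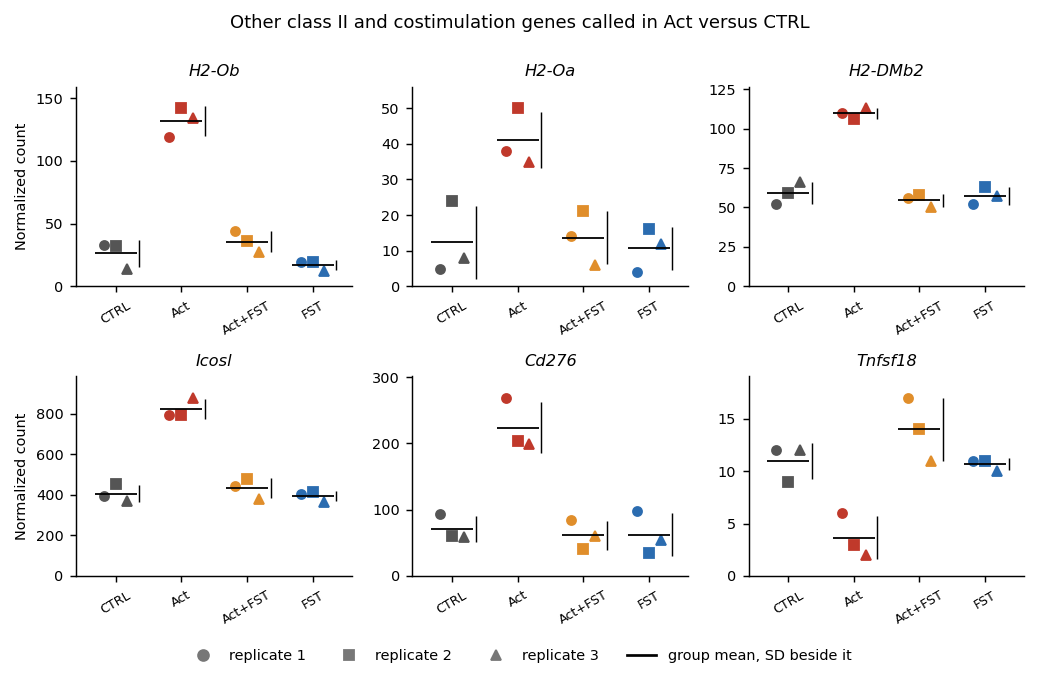
Normalized counts (vertical axis, starting at 0, a scale of its own in each panel) of H2-Ob, H2-Oa, H2-DMb2, Icosl, Cd276, and Tnfsf18 in the 12 libraries by group, with 1 symbol per replicate number, group means as lines and the SD (n = 3) beside them. The Act libraries stand above all others in the first 5 genes and below all others in Tnfsf18, where no library exceeds 17.

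Among 7 factors of the class II promoter, 2 were called higher and none lower in Act versus CTRL. They were *Rfx5* (log2 fold change 0.27, limma adjusted p = 0.0077), a subunit of the complex on the X box, and *Creb1* (0.23, limma adjusted p = 0.0083), which also binds there, and with the block 3 were higher. Of 10 genes on the route from interferon-γ to *Ciita*, 3 were called higher and none lower, and 4 were higher with the block. *Socs3*, a feedback inhibitor of cytokine signalling, rose from 115 ± 16.0 to 257 ± 22.0 normalized counts (SD, n = 3, log2 fold change 1.15, limma adjusted p = 3.4e-04). *Ifngr2*, a receptor chain (0.19, limma adjusted p = 0.0062), was also among them. Without replicate number 3, *Rfx5*, *Creb1*, and *Ifngr2* were not called and *Socs3* was. *Rfx5* overlaps *B230398E01Rik* on the opposite strand in 26.8%.

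Of 11 genes of class I presentation, 1 was called higher in Act versus CTRL and none lower. With the block 3 were higher, *Tap2* (log2 fold change 0.15, limma adjusted p = 0.029) and *Erap1* (0.19, limma adjusted p = 8.9e-04) being added. The first was *Nlrc5*, the coactivator of class I genes, with 548 ± 108 normalized counts in CTRL and 812 ± 76.5 in Act (SD, n = 3, log2 fold change 0.58, limma adjusted p = 0.024). *Nlrc5* was 734 ± 85.1 in Act + FST and 633 ± 149 in FST, and it was not called in Act without replicate number 3 (limma adjusted p = 0.24). In Act versus Act + FST none of the 11 class I genes was called higher and 2 were called lower. With the block 1 was higher and 2 were lower there.

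Among other ligands that stimulate or restrain T cells, *Icosl*, *Cd276*, and *Tnfsf18* had larger changes than *Cd80* and *Cd86*. Of 13 genes listed 11 were tested, with 4 called higher and 1 lower in Act versus CTRL, and 5 higher and 2 lower with the block. *Icosl*, the ligand of ICOS, had 393, 452, and 371 normalized counts in CTRL replicates 1, 2, and 3, and 795, 795, and 878 in Act. It had 445, 478, and 377 in Act + FST and 403, 415, and 365 in FST. The Act libraries were above all others, and *Icosl* rose by 1.02 on the log2 scale in Act versus CTRL (2.03-fold, limma adjusted p = 1.1e-05), 0.93 in Act versus Act + FST (limma adjusted p = 2.3e-05), and 0.89 in the interaction (limma adjusted p = 0.0017).

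*Cd276*, a member of the B7 family, had 93, 61, and 59 normalized counts in CTRL against 269, 204, and 199 in Act. It had 84, 40, and 60 in Act + FST and 98, 35, and 54 in FST. *Cd276* rose by 1.66 on the log2 scale in Act versus CTRL (limma adjusted p = 0.0043, and 0.079 without replicate number 3) and 1.90 in Act versus Act + FST (limma adjusted p = 0.0017). *Cd276* shares 11.4% of its exonic bases with *Gm10657* on the opposite strand. *Tnfsf18*, the ligand of GITR, was low, with 12, 9, and 12 normalized counts in CTRL against 6, 3, and 2 in Act, at a log2 fold change of −1.44 (limma adjusted p = 0.0069, and 0.13 without replicate number 3). *Cd83*, a marker of maturing antigen-presenting cells, went from 668 ± 36.8 to 800.3 ± 55.1 normalized counts (SD, n = 3, log2 fold change 0.26, limma adjusted p = 0.014).

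Downstream of CD40, 6 of 10 signalling genes were called higher in Act versus CTRL and none lower, with a median log2 fold change of 0.23. The highest were *Traf3* (log2 fold change 0.49, limma adjusted p = 8.6e-04), which restrains the noncanonical NF-κB route, *Nfkbia* (0.39, 0.0039), the inhibitor of NF-κB, *Relb* (0.31, 0.0061), and *Traf2* (0.26, 0.0024). In Act versus Act + FST, 6 of the 10 were also called higher. In Act versus CTRL, 7 of the 10 were higher with the block and 2 without replicate number 3.

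Genes whose pattern was closest to the class II chains were found by Pearson's r with the mean of the standardized log2 values of *H2-Aa*, *H2-Ab1*, *H2-Eb1*, and *Cd74*, among 10630 other genes with a mean of at least 50. Over the 12 libraries *Ciita* ranked 5 (r = 0.92), and the nearest genes outside the 10 were *Rras2* (r = 0.94), *Ptpn22* (0.94), *Mras* (0.94), *Ern1* (0.93), and *Fbxo42* (0.91). *Cd86* ranked 2952 (r = 0.22). When the group means were removed, which leaves the differences between replicates, *Ciita* ranked 12 (r = 0.95), *H2-DMa* 65 (0.91), *Cd86* 108 (0.89), *H2-DMb1* 1966 (0.46), *Cd40* 4749 (0.11), and *Cd80* 6433 (r = −0.10). The nearest genes were then *Stk40* (r = 0.98), *Cmklr1* (0.98), *Jaml* (0.98), *Csf3r* (0.97), and *Stk17b* (0.97). These values are a description over 12 libraries that share replicate numbers.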

How the data were processed

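Per the study's methods and the submitters' processing notes, single-end reads of 12 stranded mRNA libraries were trimmed with Trimmomatic 0.39, aligned to mm10 with STAR 2.7.9a, and counted with featureCounts 2.0.2, without reads on several genes or regions. The authors deposited normalized counts rounded to whole numbers, handled here as a score (a scaled value and no raw count). The scaling formula and the strand setting are not given in the sources used here.

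Genes with a mean of at least 5 (14318 of 18376) were fitted with limma 3.58.1 (R 4.3.3, moderated variances that follow a trend in the mean) on log2(normalized count + 1), in 1 model with 4 group means, after a run on simulated data. Deviations from the group means correlated across genes at 0.157 to 0.481 in all 18 pairs of libraries with the same number (mean 0.312). In 36 other pairs the mean was −0.155, which follows from the same-number values because deviations cancel within a group. The number was treated as a pairing on the same-number values alone. The labels do not state its origin. The 10 genes and the lists were chosen with earlier results of these data known. Named from each list were at most 4 called genes with the largest change in Act versus CTRL, and the 5 genes closest in pattern. Some genes of the lists are counted but their own values are not reported here. Positions, exon lengths and overlaps come from GENCODE vM21 (GRCm38) and promoters from RefSeq (GRCm38.p6).

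Alternatives were pseudocounts of 0.5 and 5, no filter or a mean of at least 50, quantile normalization, recomputed median-ratio factors, the replicate block, the 6 libraries compared alone, and each library left out. A correction for reads that share start positions and the removal of 1 replicate number from every group were chosen after the data were seen. Where a group keeps 2 libraries, its spread is taken from all groups.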

Additional observations from a re-analysis of the deposited data

Results flagged for a closer look

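The effect of activin A on *H2-DMa* and *Cd86* differed with the presence of FST288 when the replicate number was a block, by a test of the interaction itself. The interaction was 0.34 on the log2 scale for *H2-DMa* (95% interval 0.16 to 0.51, limma adjusted p = 0.011) and 0.43 for *Cd86* (95% interval 0.26 to 0.59, limma adjusted p = 0.0019). Without the block the limma adjusted p was 0.15 for *H2-DMa* and 0.14 for *Cd86*. With the block and replicate number 1, 2, or 3 left out of every group, the adjusted p of *H2-DMa* was 0.049, 0.044, and 0.076, and that of *Cd86* was 0.020, 0.015, and 0.0018. For *H2-DMa* every replicate pair also moved up from CTRL to Act (mean log2 difference 0.28), which follows from its Act libraries lying above all CTRL libraries. From FST to Act + FST the pairs differed only slightly, by −0.016, −0.069, and −0.10 (mean −0.062). That small difference was not tested apart from the interaction.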

How the results depend on the processing

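The calls of *Cd86* in Act versus CTRL and Act versus Act + FST were kept under every alternative run, with log2 changes between 0.44 and 0.56 in the first. With the replicate block, 4 of the 10 genes were called lower in Act versus CTRL and 2 were positive in the interaction, and no other call of the 10 genes changed with it. The block also raised the share of all genes called. Without a filter on the mean, and under quantile normalization, 1 gene was called higher in Act versus CTRL, because *H2-DMa* was lost (limma adjusted p = 0.054 and 0.090). Quantile normalization gave 2 lower calls in Act versus Act + FST (*Cd80* added) and turned the sign of *Cd74* in that comparison (−0.0053), of *H2-DMb1* in FST versus CTRL (−0.0021), and of *H2-Ab1* (−0.0080) and *Cd74* (−0.023) in the interaction, none of them called. Fitting only the 6 libraries compared exchanged *Cd80* for *Ciita* among the lower calls of Act versus CTRL. The cause was not tested.

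When libraries were left out (each in turn, or 1 replicate number in every group with the block, or number 3 without it), between 1 and 2 genes were called higher and between 0 and 6 lower in Act versus CTRL, and between 1 and 2 higher and 0 and 3 lower in Act versus Act + FST. In Act + FST versus CTRL between 0 and 1 were called lower (*H2-Ab1*, with the block and without number 3), and in the interaction between 0 and 2 positive and 0 and 3 negative (*H2-Eb1*, *Ciita*, and *Cd40*, with the block and without number 3). No sign of the 10 genes changed in Act versus CTRL. Signs of genes that were not called did change elsewhere. In Act versus Act + FST the log2 change ranged from −0.28 to 0.12 for *H2-Aa*, −0.095 to 0.24 for *H2-Ab1*, −0.22 to 0.15 for *H2-Eb1*, and −0.094 to 0.16 for *Cd74*. In Act + FST versus CTRL it ranged from −0.40 to 0.00030 for *H2-Aa*, −0.081 to 0.033 for *H2-DMb1*, −0.069 to 5.5e-05 for *Cd80*, and −0.10 to 0.13 for *Cd86*. In FST versus CTRL it ranged from −0.20 to 0.14 for *H2-Aa*, −0.25 to 0.076 for *H2-Ab1*, −0.29 to 0.032 for *H2-Eb1*, −0.11 to 0.030 for *H2-DMa*, −0.047 to 0.052 for *H2-DMb1*, −0.12 to 0.094 for *Cd74*, −0.32 to 0.21 for *Ciita*, −0.048 to 0.036 for *Cd80*, and −0.13 to 0.0073 for *Cd86*. In the interaction it ranged from −0.32 to 0.088 for *H2-Aa*, −0.19 to 0.19 for *H2-Ab1*, −0.36 to 0.047 for *H2-Eb1*, −0.11 to 0.13 for *Cd74*, and −0.45 to 0.033 for *Cd40*. Rounding to whole numbers coarsens genes with few counts, *H2-Oa* and *Tnfsf18* among them.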
